A study of Homo sapiens with 22 samples.

Results

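The metallothioneins are small, cysteine-rich proteins that bind zinc and copper. Expression was followed here for 6 of their genes (MT1E, MT1F, MT1G, MT1M, MT1X and MT2A) and for MTF1, the zinc-sensing transcription factor that switches metallothionein genes on. The 7 genes were chosen by symbol, and each had a row among the 20668 gene symbols measured in every sample. The RNA-seq samples were MDA-MB-231 cells, a human triple-negative breast cancer line, given vehicle, 100 nM dexamethasone (Dex) for 2 or 4 h, or 10 μM compound A (CpdA) for 2 or 4 h, with 2 biological replicates in each of the 5 groups. Dex is a synthetic glucocorticoid that activates the glucocorticoid receptor (GR), and CpdA is a plant-derived compound described as a selective ligand of the same receptor. All groups were grown without phenol red and in charcoal-stripped serum before treatment, which keeps steroids low, and all come from this 1 line. The vehicle samples carry no time in their labels, so the same 2 samples stood as the control for 2 h and for 4 h, and all comparisons with vehicle share them.

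Metallothioneins buffer free zinc and copper, and their genes respond to metals through metal response elements, short motifs bound by MTF1. MT2A is also a long-known target of glucocorticoids, through a receptor binding site upstream of its start. In humans the active genes of the family lie side by side on chromosome 16 and are close copies of each other, so that a short read may match more than one of them.

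The cluster spans 119.1 kb in the GRCh37 build, with 16 annotated metallothionein genes and pseudogenes, 1 of them on the reverse strand. MT2A lies at chr16:56642496-56643409, MT1E at chr16:56659387-56661024, MT1M at chr16:56666571-56667893, MT1F at chr16:56691643-56694610 and MT1X at chr16:56716382-56718108, all on the forward strand. MT1G, at chr16:56700642-56701977, is the gene on the reverse strand. MTF1 lies apart, at chr1:38275246-38325264 on the reverse strand. Each of the 6 metallothionein genes codes over 3 exons and 183 bases, stop codon left out. The coding sequences of the 3 members that carried nearly all of the metallothionein RNA are given here to show how alike they are, with capitals at the bases that differ from MT2A.
MT2A: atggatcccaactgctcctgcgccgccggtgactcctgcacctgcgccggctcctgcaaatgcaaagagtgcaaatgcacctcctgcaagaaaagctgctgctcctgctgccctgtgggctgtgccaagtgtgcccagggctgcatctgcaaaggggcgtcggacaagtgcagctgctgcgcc
MT1E: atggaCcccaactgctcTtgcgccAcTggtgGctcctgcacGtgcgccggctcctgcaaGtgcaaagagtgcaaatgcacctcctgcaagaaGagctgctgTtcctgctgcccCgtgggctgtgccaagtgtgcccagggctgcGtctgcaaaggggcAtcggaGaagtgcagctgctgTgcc
MT1X: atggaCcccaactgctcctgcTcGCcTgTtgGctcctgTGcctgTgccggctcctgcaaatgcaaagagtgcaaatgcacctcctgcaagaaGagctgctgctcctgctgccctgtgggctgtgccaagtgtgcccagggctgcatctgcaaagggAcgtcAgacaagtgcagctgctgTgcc
MT1E and MT1X each differed from MT2A at 14 bases. Over the 15 pairs of the 6 genes, identity in the coding sequence ran from 88.5% (MT1F with MT1X) to 95.1% (MT1G with MT2A).

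The 300 bases upstream of the start sites of MT2A and MT1X are shown because both genes responded to Dex and both regions were in the RefSeq promoter table (GRCh38.p14), whose sequence matched the GRCh37 genome at 1 place each. Capitals mark matches to the metal response element core (TGCACNC or TGCGCNC) and to a palindromic glucocorticoid response element (GNACA and TGTNC with 3 bases of any kind between), searched on both strands. The first letter of the MT2A window is the end of a match that begins further upstream. MTF1 was also in that table, and MT1E, MT1F, MT1G and MT1M were not.
MT2A, chr16:56642196-56642495, forward strand: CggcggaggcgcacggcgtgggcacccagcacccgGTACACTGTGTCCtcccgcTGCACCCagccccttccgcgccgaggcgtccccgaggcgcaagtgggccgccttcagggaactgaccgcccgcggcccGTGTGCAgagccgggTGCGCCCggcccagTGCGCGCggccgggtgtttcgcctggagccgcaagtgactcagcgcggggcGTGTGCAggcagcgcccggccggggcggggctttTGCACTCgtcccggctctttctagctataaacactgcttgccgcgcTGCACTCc
MT1X, chr16:56716082-56716381, forward strand: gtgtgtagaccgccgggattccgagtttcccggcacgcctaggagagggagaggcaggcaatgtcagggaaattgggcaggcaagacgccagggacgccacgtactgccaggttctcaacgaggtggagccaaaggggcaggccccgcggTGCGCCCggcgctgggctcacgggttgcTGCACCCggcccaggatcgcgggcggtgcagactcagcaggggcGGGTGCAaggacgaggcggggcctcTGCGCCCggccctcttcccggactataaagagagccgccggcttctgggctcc
Over 500 bases, the MT2A upstream region held 8 metal response element cores and MT1X held 5, whereas 47.1% of the 19873 upstream windows of protein-coding genes held at least 1, 0.77% held 5 or more and 0.101% held 8 or more. MT2A also held 1 match to the glucocorticoid response element, from base -265 to base -253 before the start site, a motif found in 0.61% of the windows. No match to it lay in the 500 bases of MT1X or MTF1, and MTF1 had no metal response element core there. These are matches of letters only.

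Expression was in RPKM (reads of a gene divided by its length and by the library's depth), a scale on which levels of genes of unlike length can be compared. The number of mapped reads behind the values, recovered from genes read once, was 51300000 to 62100000 per sample. The cells carried the markers of the line: VIM stood at 1270 to 1460 RPKM, while ESR1 and PGR were at or near 0. SPARC, listed among the markers expected to be high, was at 0.149 to 0.273 RPKM, and ERBB2 (15.9 to 21.6), KRT19 (257 to 371) and EPCAM (8.02 to 10.6), listed as low, were detected, as was CD14 among the leukocyte markers (2.17 to 2.89). Summed over 5 marker genes, the luminal epithelial list ran from 271 to 293 in Dex 4 h against 344 to 366 in vehicle, nearly all of it KRT19 (means of 267 and 340 RPKM), while GATA3 of the same list was higher at Dex 4 h by 0.26 (limma adjusted p = 0.0184), and the part of these genes in the changes described below was not tested. In such bulk RNA, fewer cells of a type and less RNA per cell cannot be told apart. Across genes, duplicates had Spearman correlations of 0.985 to 0.987.

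**Figure D1:**
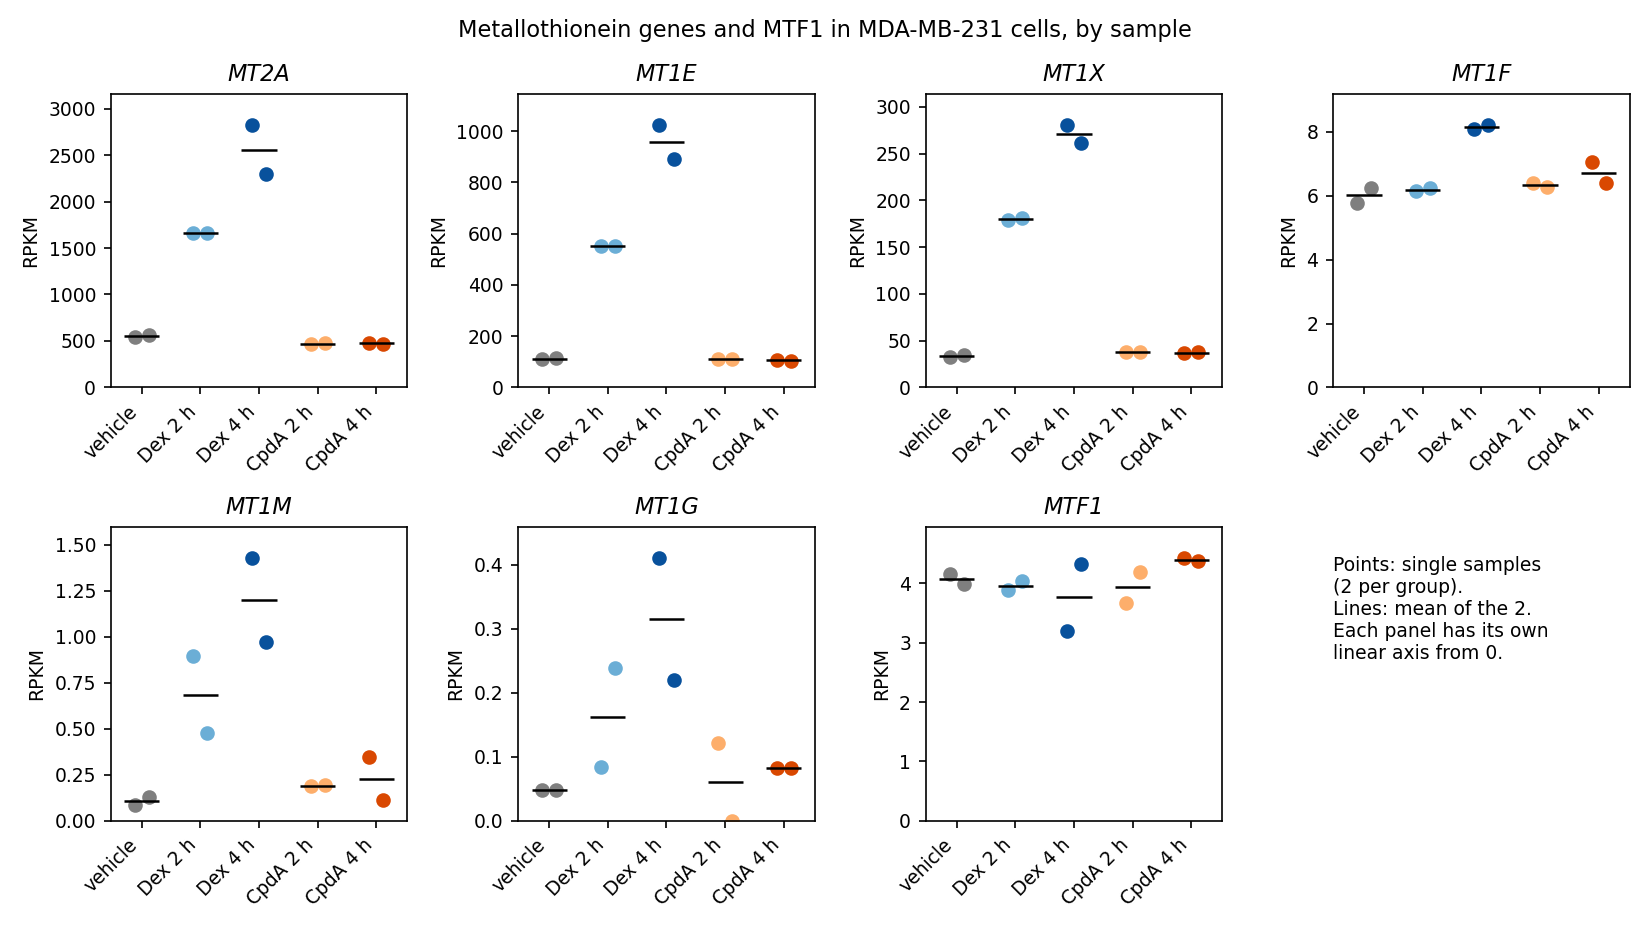
RPKM of the 7 genes in each of the 10 samples, on linear axes from 0, with a point for each sample and a line at the mean of the 2 samples of a group. MT2A, MT1E and MT1X were high in all 4 Dex samples and near the vehicle level in all 4 CpdA samples, MT1F rose at Dex 4 h, and MTF1 stayed between 3.20 and 4.42 RPKM.

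In vehicle-treated cells, MT2A was the most abundant member, followed by MT1E, MT1X, MT1F and MTF1, with MT1M and MT1G near the limit of detection. The mean was 554.6 ± 12.7 RPKM (SD, n = 2) for MT2A, 112.7 ± 4.57 for MT1E, 33.8 ± 1.78 for MT1X and 6.02 ± 0.34 for MT1F. MTF1 followed at 4.07 ± 0.124 RPKM, MT1M at 0.11 ± 0.0301 and MT1G at 0.0479 ± 0.000453. No neighbours in this order overlapped in their vehicle samples. In read counts the vehicle samples held 11716 and 12266 reads of MT2A but 2 and 3 reads of MT1M, and 1 read each of MT1G.

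Dex raised the 3 abundant metallothioneins within 2 h, and more by 4 h. MT2A, the major metallothionein in most human cells, stood at 546 and 564 RPKM in vehicle, at 1659 and 1661 after 2 h of Dex and at 2824 and 2295 after 4 h. MT1E stood at 109 and 116 RPKM in vehicle, at 551 in both samples after 2 h and at 1024 and 891 after 4 h. MT1X went from 32.5 and 35.1 RPKM in vehicle to 179 and 181 after 2 h and 280 and 261 after 4 h. For each of them the Dex samples lay above the vehicle samples, and the 4 h samples above the 2 h samples.

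Against vehicle, the log2 fold change at 2 h was 2.41 for MT1X (SE 0.049, limma adjusted p = 6.12e-09), 2.29 for MT1E (SE 0.062, adjusted p = 5.03e-08) and 1.58 for MT2A (SE 0.084, adjusted p = 2.57e-06). By 4 h it was 3.08 for MT1E (adjusted p = 4.34e-09), 3.00 for MT1X (adjusted p = 1.45e-09) and 2.20 for MT2A (adjusted p = 1.6e-07). In mean RPKM these were rises of 8.5-fold for MT1E, 8.01-fold for MT1X and 4.62-fold for MT2A. When the 12713 genes kept by the filter were ordered by their change at 4 h, MT1E was at rank 30, MT1X at rank 33 and MT2A at rank 76. Glucocorticoid reference genes in the same samples spanned a wider range at 4 h. PDK4 rose the most, by 7.27 on the log2 scale (limma adjusted p = 1.35e-09), from a mean of 0.149 RPKM in vehicle. TSC22D3, which encodes the leucine zipper protein GILZ, rose by 5.10 and FKBP5, a co-chaperone of GR, by 4.98 (limma adjusted p = 1.06e-09 for each). SGK1, a kinase, rose by 2.22 and ERRFI1, an inhibitor of the EGF receptor, by 1.92, and NR3C1, the GR gene itself, fell by 0.97. Of 11 such reference genes, chosen with earlier results of these data known, 10 were higher and 1 lower at each Dex time. Over all genes, 4.49% were higher and 5.82% lower at Dex 2 h, and 9.26% higher and 18.2% lower at Dex 4 h. At CpdA 2 h 7 of the 11 were higher, where 1.89% of all genes were. At CpdA 4 h 6 were higher and 1 lower, where 6.76% of all genes were higher and 13.8% lower. The changes with CpdA were mostly small beside those with Dex. The median log2 change over the 11 was 0.55 at CpdA 2 h and 0.27 at CpdA 4 h, against 3.09 at Dex 2 h and 3.57 at Dex 4 h. At CpdA 2 h TSC22D3 rose by 0.44, FKBP5 did not pass (-0.10, limma adjusted p = 0.466), and DUSP1 rose by 2.76.

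Of the 7 genes, 6 passed the filter of 0.5 RPKM in at least 2 samples, and 4 of them were higher after 2 h of Dex at an adjusted p under 0.05 (MT1E, MT1M, MT1X and MT2A), where 4.49% of all genes tested were higher. After 4 h the same 4 and MT1F were higher, against 9.26% of all genes. The count of members that were lower was 0 at both times (none at an unadjusted p under 0.05 either), where 5.82% of all genes were lower at 2 h and 18.2% at 4 h. MT1M passed the filter only through its Dex samples, so its call follows in part from the filter. It therefore adds nothing to these comparisons with all genes.

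**Figure D2:**
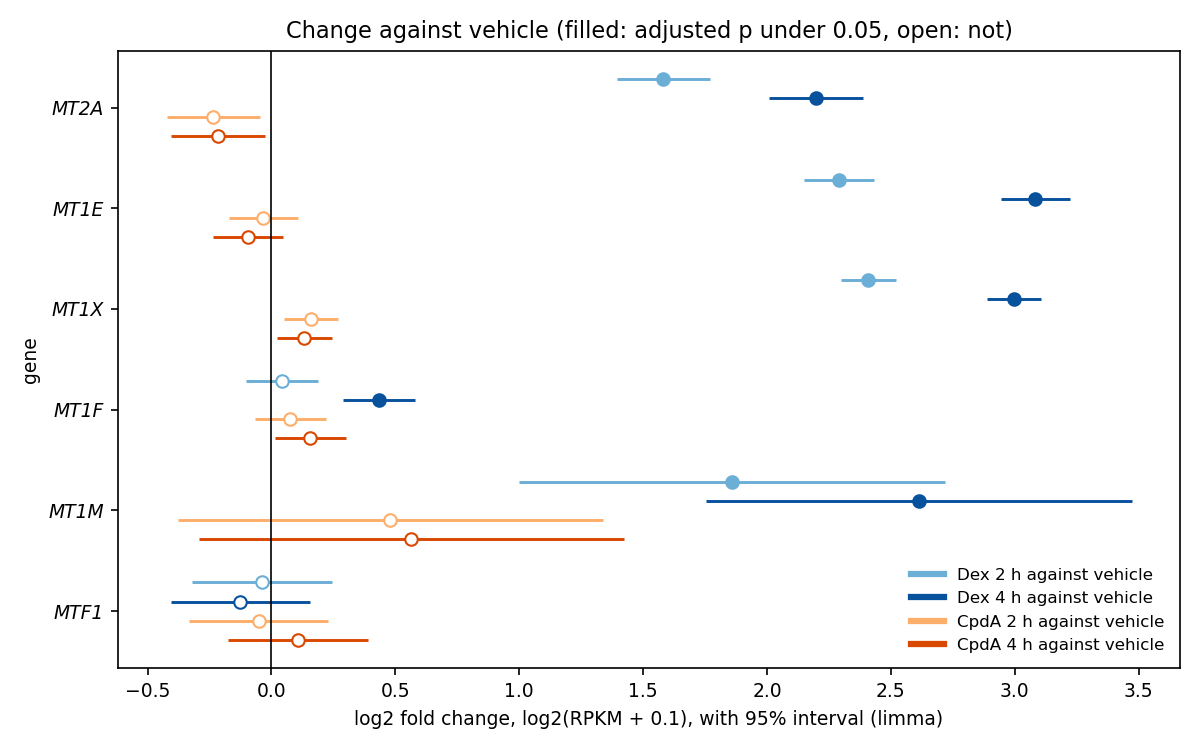
Log2 fold change against vehicle of the 6 members that passed the filter, on the log2(RPKM + 0.1) scale, with 95% intervals from limma. Filled points passed an adjusted p of 0.05: MT2A, MT1E and MT1X at both Dex times, MT1M at both Dex times with wide intervals, and MT1F at Dex 4 h, with no filled point for CpdA or MTF1.

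MT1F, another copper- and zinc-binding member, moved later and less. It stood at 5.78 and 6.26 RPKM in vehicle, at 6.15 and 6.23 after 2 h of Dex and at 8.10 and 8.22 after 4 h. The 2 h samples lay within the vehicle range and the 4 h samples above all others. The change was 0.04 on the log2 scale at 2 h (95% interval -0.10 to 0.19, adjusted p = 0.789) and 0.43 at 4 h (SE 0.064, limma adjusted p = 0.00089), a rise of 1.36-fold in mean RPKM.

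MT1M and MT1G were read so rarely that single reads set their values. MT1M held 2 and 3 reads in vehicle, 23 and 13 after 2 h of Dex, 34 and 24 after 4 h, 5 and 5 after 2 h of CpdA, and 9 and 3 after 4 h of CpdA. In RPKM it stood at 0.0887 and 0.131 in vehicle and at 1.43 and 0.971 after 4 h of Dex. Its log2 fold change was 1.86 at 2 h (SE 0.379, limma adjusted p = 0.0127) and 2.61 at 4 h (adjusted p = 0.000836). MT1M was tested only because its Dex samples passed the filter, so these p-values are not independent support for a rise. The call at 2 h was lost without vehicle replicate 1 (adjusted p = 0.0615) and without Dex 2 h replicate 1 (adjusted p = 0.118). MT1G held 1 read in each vehicle sample, 2 and 6 after 2 h of Dex, 9 and 5 after 4 h, 3 and 0 after 2 h of CpdA and 2 in each sample after 4 h of CpdA. It did not pass the filter. Per mapped read, the 14 reads at Dex 4 h against 2 in vehicle gave a ratio of 6.54, with an exact 95% interval of 1.5 to 59.3 that covers counting error only, and the fit without a filter gave an adjusted p of 0.0763 (limma).

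The low members shared sequence with the high ones. Of the 50-base windows (the read length) of the MT1M transcript, 14.6% occurred exactly in another gene, none of them in MT1E, and 100 of 349 lay within 2 mismatches of a window of MT1E. Of the MT1G windows, 20.2% occurred in another gene, 47 of them in MT1X. Within 2 mismatches, 67 MT1G windows matched MT1X, 101 matched MT1E and 101 matched MT2A. MT1M was read 0.85 times per 1000 MT1E reads in vehicle, 1.07 and 1.09 times in the Dex groups (2 h, then 4 h) and 1.51 and 1.89 times in the CpdA groups. MT1G was read 1.42 times per 1000 MT1X reads in vehicle, 0.914 and 1.16 times with Dex and 1.66 and 2.25 times with CpdA, in the same order. Summed over the 2 samples of a group, these rates ran from 0.85 to 1.89 for MT1M and from 0.914 to 2.25 for MT1G. Over the same groups MT1E and MT1X rose more than 4-fold with Dex. The rates depend on the partner chosen, and none was taken for MT1G against MT1E or MT2A. MT1L, a pseudogene of the cluster, was read 0 to 0.298 times per 1000 MT1E reads over the groups. Single samples varied more, from 0.705 to 2.82 for MT1M and from 0 to 3.25 for MT1G. Whether the reads of the low members came from the abundant copies was not tested. Exact sharing was 5.3% of windows for MT1E, 6.1% for MT1F, 11.1% for MT2A and 0.9% for MTF1. It was 51.0% for MT1X, where 117 windows were shared with ENSG00000259827, a gene without a metallothionein symbol, and 47 with MT1G. Whether any of the 117 windows also occurred in a paralog was not checked. Near matches were more common than exact ones among the abundant members MT1E and MT2A. Within 2 mismatches of another metallothionein lay 30.7% of the windows of MT1E, 36.4% of MT2A, 28.2% of MT1X and 18.1% of MT1F.

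MTF1 RNA did not differ detectably in any comparison. It stood at 4.16 and 3.98 RPKM in vehicle. Dex samples held 3.88 and 4.03 RPKM at 2 h and 3.20 and 4.33 RPKM at 4 h. CpdA samples held 3.66 and 4.19 RPKM at 2 h and 4.42 and 4.37 RPKM at 4 h. The Dex 4 h samples were the farthest apart and spanned the vehicle values. The change against vehicle under Dex was -0.04 at 2 h (95% interval -0.32 to 0.24) and -0.13 at 4 h (-0.41 to 0.16). Under CpdA it was -0.05 at 2 h (-0.33 to 0.23) and 0.11 at 4 h (-0.17 to 0.39), with limma adjusted p-values of 0.508 to 0.911. Its sign at Dex 4 h rested on replicate 1: the change was 0.09 without that sample, and -0.34 (limma adjusted p = 0.0186) when replicate 2 was left out instead. Without replicate 2, the Dex 4 h value was also lower than that of Dex 2 h (-0.30, limma adjusted p = 0.0396) and of CpdA 4 h (-0.45, adjusted p = 0.00475).

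The rise went on between 2 and 4 h of Dex. Comparing the 2 Dex groups directly, 4 of the 6 genes tested were higher at 4 h, against 4.55% of all genes. The log2 difference was 0.79 for MT1E (SE 0.062, limma adjusted p = 0.000148), 0.62 for MT2A (SE 0.084, adjusted p = 0.00182), 0.59 for MT1X (SE 0.049, adjusted p = 0.000185) and 0.39 for MT1F (SE 0.064, adjusted p = 0.00463). MT1M differed by 0.75 with a 95% interval of -0.10 to 1.61.

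CpdA left the abundant members close to vehicle. With CpdA, MT1E stood at 110 and 111 RPKM after 2 h and at 106 and 105 after 4 h, and its change was -0.03 (95% interval -0.17 to 0.11) and -0.09 (-0.23 to 0.05) on the log2 scale. MT2A stood at 464 and 479 RPKM at 2 h and 483 and 471 at 4 h, all 4 below both vehicle samples. MT1X stood at 37.7 and 37.9 RPKM at 2 h and 36.7 and 37.4 at 4 h, all 4 above both vehicle samples. MT1F stood at 6.41 and 6.28 RPKM at 2 h and 7.05 and 6.39 at 4 h, also above vehicle.

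With limma, 0 of the 6 genes tested passed an adjusted p of 0.05 at CpdA 2 h, where 6.18% of all genes did, and 0 at CpdA 4 h, where 20.5% did. At an unadjusted p under 0.05 there were 2 at 2 h (MT1X and MT2A) and 3 at 4 h (MT1F, MT1X and MT2A). MT2A differed from vehicle by -0.23 at 2 h (95% interval -0.42 to -0.05, limma adjusted p = 0.147) and by -0.22 at 4 h (-0.41 to -0.03, adjusted p = 0.104). MT1X differed by 0.16 at 2 h (0.05 to 0.27, limma adjusted p = 0.095) and by 0.13 at 4 h (0.02 to 0.24, adjusted p = 0.0891). These 2 genes lay close to the threshold. Without Dex 4 h replicate 1, which enters the shared estimate of the spread, MT2A passed at both times (adjusted p = 0.00587 and 0.00323), and so did MT1X (0.0373 and 0.0372). The outcome was the same without Dex 4 h replicate 2 (MT2A 0.00607 and 0.00332, MT1X 0.0375 and 0.0373), and MT1X at 4 h also passed without vehicle replicate 2 (0.0468). Between the 2 CpdA times, 0 genes passed, adjusted or unadjusted, where 12.4% of all genes passed the adjusted threshold. The largest of these differences in size was 0.16 for MTF1 (95% interval -0.12 to 0.44).

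Set against each other at matched times but at different doses, Dex samples were higher than CpdA samples for 4 of the 6 genes at 2 h, where 7.53% of all genes were higher, and for 5 at 4 h, where 15.4% were. Both counts include MT1M, which the filter kept only for its Dex samples, so it adds nothing to the comparison with all genes. At 4 h the log2 difference was 3.18 for MT1E (95% interval 3.04 to 3.32), 2.87 for MT1X (2.75 to 2.98), 2.42 for MT2A (2.23 to 2.60) and 0.28 for MT1F (0.13 to 0.42, limma adjusted p = 0.0088). The MT1F call was lost without CpdA 4 h replicate 2 (difference 0.21, adjusted p = 0.0901). MT1M was higher by 1.38 at 2 h (limma adjusted p = 0.042), a call lost without either vehicle sample (0.0565 and 0.0569), without Dex 2 h replicate 1 (0.289) and without either CpdA 2 h sample (0.182 and 0.16), and by 2.05 at 4 h (0.00278).

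**Figure D3:**
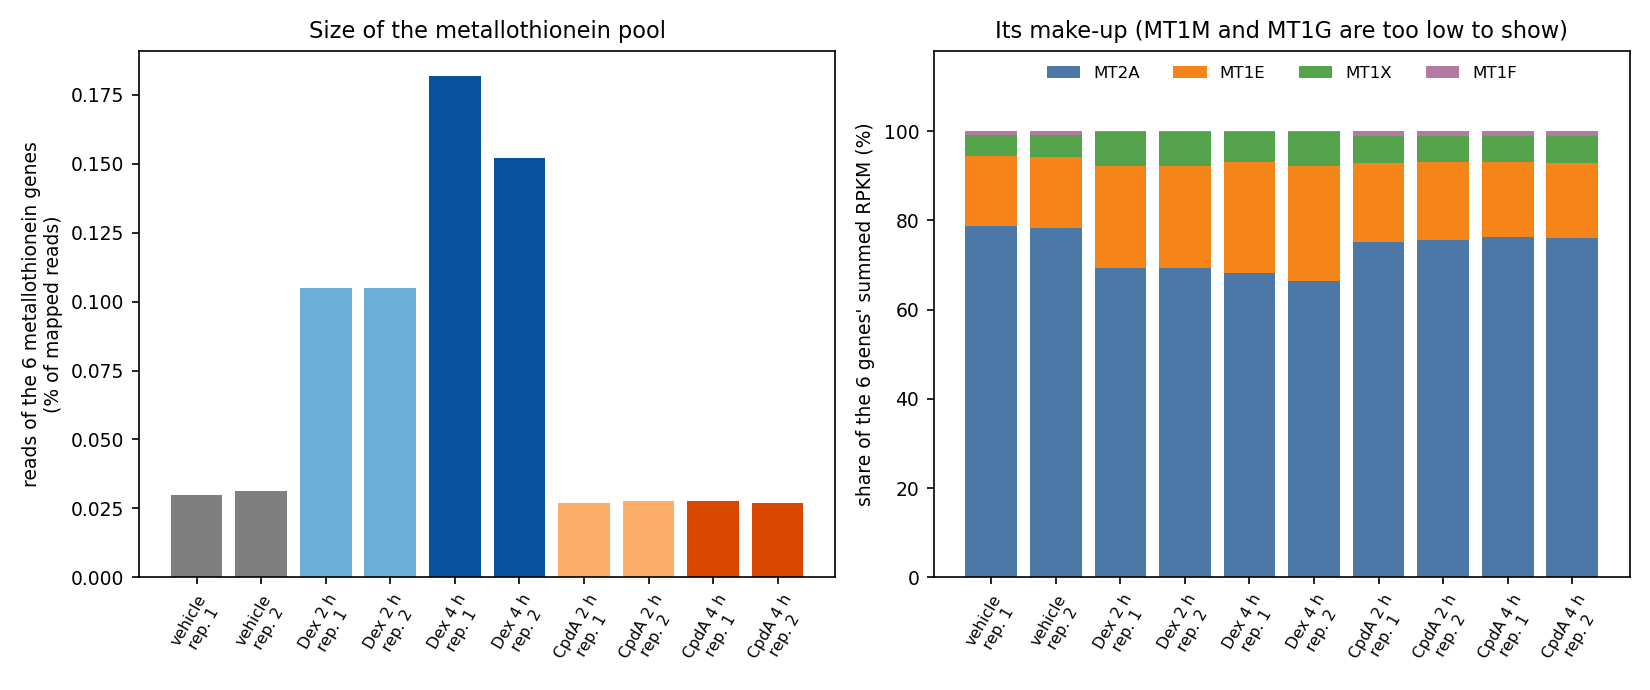
Left, reads of the 6 metallothionein genes as a percentage of mapped reads in each sample. Right, the share of their summed RPKM taken by MT2A, MT1E, MT1X and MT1F. The pool was 0.027 to 0.031% of reads in vehicle and CpdA samples and 0.105 to 0.182% in Dex samples, and MT1E and MT1X took larger shares after Dex.

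Taken over the 6 metallothionein genes, the pool was 0.0306% of mapped reads in vehicle, 0.105% after 2 h and 0.167% after 4 h of Dex, and 0.0272% at both CpdA times (means of 2 samples). Its make-up shifted with it. MT2A took 78.7 and 78.2% of the summed RPKM in the vehicle samples, 69.2% in both samples at Dex 2 h, and 68.2 and 66.4% at Dex 4 h. MT1E took 15.8 and 16.1% in vehicle and 24.7 and 25.8% at Dex 4 h, and MT1X 4.69 and 4.86% in vehicle and 6.78 and 7.55% at Dex 4 h. In CpdA samples the MT2A share was 75.1 to 76.3%, below both vehicle samples and above all Dex samples. These shares are descriptions, and with 2 samples a group an exact permutation test could not have passed a threshold of 0.05.

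**Figure D4:**
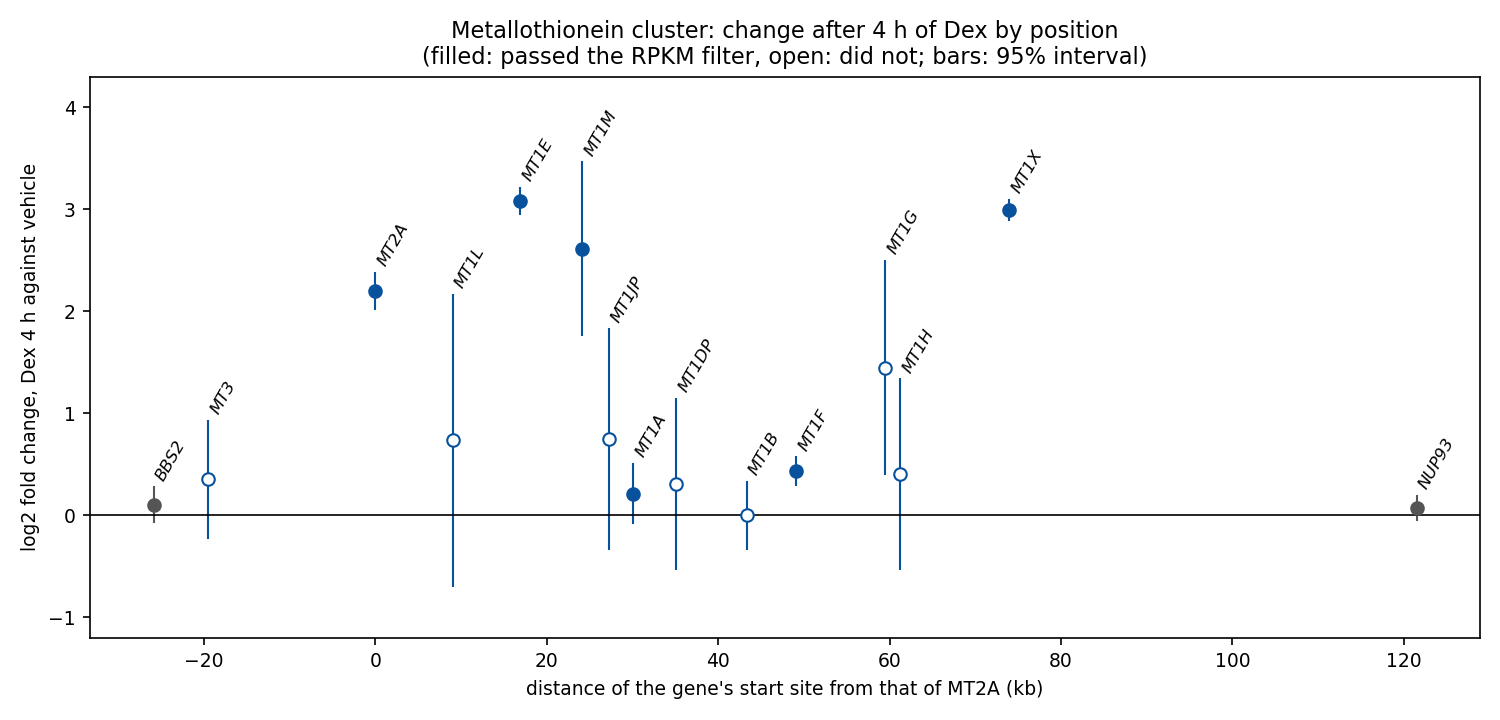
Log2 fold change at Dex 4 h against vehicle by distance of each gene's start site from that of MT2A, in kb, with 95% intervals from limma. MT2A, MT1E, MT1M and MT1X stood above 2, whereas MT1A at 0.21 and MT1F at 0.43 lay between them in the cluster and the flanking genes BBS2 and NUP93 lay at 0.11 and 0.07.

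Along the cluster, members that rose strongly were interspersed with genes that did not. MT1A, which starts 30.1 kb from the MT2A start, stood at 1.38 and 1.17 RPKM in vehicle, 1.21 and 1.30 after 2 h of Dex and 1.54 and 1.44 after 4 h, and its change at 4 h was 0.21 (SE 0.132, limma adjusted p = 0.277). At CpdA 4 h it stood at 0.852 and 0.721 RPKM and fell by 0.63 on the log2 scale (limma adjusted p = 0.00985), on 20 and 17 reads against 28 and 24. The summed reads, 37 against 52, had exact Poisson 95% intervals of 26.1 to 51 and 38.8 to 68.2, which overlapped. These intervals were not scaled for depth, and overlap of separate intervals does not test the difference. Mapped reads were 59300000 and 59600000 in the CpdA 4 h samples and 51300000 and 51900000 in the vehicle samples. MT1A was the 1 gene of 8 other metallothionein genes in the files that passed the filter. The other 7 (MT1B, MT1H, MT1HL1, MT1L, MT1JP, MT1DP and MT3) had at most 10 reads over the 2 samples of any group. Among 9 genes that flank the cluster and passed the filter, 0 passed the adjusted threshold at Dex 2 h with limma (1 at an unadjusted p under 0.05) and 3 did at Dex 4 h, where 10.3% and 27.4% of all genes passed in either direction. NLRC5, an activator of major histocompatibility genes, fell by 0.66 at Dex 4 h and NUDT21, a polyadenylation factor, by 0.19. HERPUD1, a gene of the endoplasmic reticulum stress response, rose by 1.87 at CpdA 4 h (limma adjusted p = 1.14e-07) and by 0.26 at Dex 4 h (adjusted p = 0.00415).

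Among the other genes of metal handling, the zinc exporter SLC30A1 fell with Dex and rose with CpdA. Of 6 zinc exporters that passed the filter, 1 was lower at each Dex time and 1 was higher at each CpdA time, and in each case it was SLC30A1, the exporter of the plasma membrane and itself an MTF1 target. Over all genes, 5.82% were lower at Dex 2 h and 18.2% at Dex 4 h. The shares that were higher were 1.89% at CpdA 2 h and 6.76% at CpdA 4 h. SLC30A1 averaged 17.3 RPKM in vehicle, 14.6 and 13.8 with Dex for 2 and 4 h, and 20.5 and 21.7 with CpdA for 2 and 4 h. Its difference between Dex and CpdA was -0.49 at 2 h (limma adjusted p = 0.00022) and -0.65 at 4 h (adjusted p = 1.6e-05), the reverse of the order of the metallothioneins. Of 11 zinc importers, 0 passed with limma at either 2 h comparison (1 in each at an unadjusted p under 0.05), where 10.3% of all genes passed with Dex and 6.18% with CpdA. At Dex 4 h 1 importer was higher (SLC39A13, by 0.19), where 9.26% of all genes were. At CpdA 4 h 1 was higher (SLC39A14, by 0.46) and 1 lower (SLC39A9, by -0.20), where 6.76% of all genes were higher and 13.8% lower. Of 13 copper-handling genes, 1 was higher and 3 were lower at Dex 4 h, near the shares over all genes of 9.26% higher and 18.2% lower, among them the copper exporter ATP7A (-0.43) and the metalloreductase STEAP2 (-0.52). At CpdA 4 h 1 copper-handling gene was higher (SOD1, the copper- and zinc-dependent superoxide dismutase, by 0.28) and 2 were lower, where 13.8% of all genes were lower. The median change of the importers at Dex 4 h was -0.002 and of the copper genes 0.02, beside -0.05 over all genes.

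A list of stress genes rose with CpdA and moved both ways with Dex. It held HMOX1, HSPA1A, HSPA1B, HSPA6, DNAJB1, HSPH1, BAG3, GCLM, SLC7A11, TXNRD1 and SRXN1. It held no metallothionein, and no member passed the threshold at either CpdA time. The list was chosen with earlier results of these data known. Of its 11 genes, 7 were higher at CpdA 2 h, where 1.89% of all genes were higher. At CpdA 4 h 11 were, where 6.76% of all genes were, with a median change of 1.5 beside -0.04 over all genes. With Dex, 2 were higher and 3 lower at 2 h, where 4.49% of all genes were higher and 5.82% lower. At Dex 4 h 2 were higher and 4 lower, where 9.26% of all genes were higher and 18.2% lower. The median change of these stress genes at Dex 4 h was -0.32 beside -0.05 over all genes. HMOX1, the heme-degrading enzyme, rose by 2.70 at CpdA 4 h (limma adjusted p = 1.14e-07) and fell by 0.93 at Dex 4 h (adjusted p = 1.46e-05). HSPA6, HSPA1A and HSPA1B, inducible HSP70 chaperones, rose by 6.64, 3.69 and 3.40 at CpdA 4 h. Of 4 MTF1 targets outside the metallothionein family, 2 were higher and 1 lower at Dex 4 h, where 9.26% of all genes were higher and 18.2% lower, and 2 were higher at CpdA 4 h, where 6.76% of all genes were. GCLC, which catalyses the first step of glutathione synthesis, rose under both compounds, by 1.96 at Dex 4 h and by 1.69 at CpdA 4 h (limma adjusted p = 4.54e-07 and 9.56e-06). SEPW1, a selenoprotein, rose by 0.33 at Dex 4 h.

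The 3 abundant members followed each other closely. Over the 10 samples, which share their groups and controls, the Pearson correlation of log2(RPKM + 0.1) was 0.997 for MT1E with MT1X and with MT2A, 0.990 for MT1X with MT2A, and 0.605 to 0.618 for MT1F with these 3. MTF1 correlated with them at -0.458 to -0.418. Of all other genes kept, the one most like MT1E and MT1X was CAMK2N1, an inhibitor of CaM kinase II (0.998 and 0.999), and the one most like MT2A was TPRA1 (0.996). LHX6, SERPINF2, SLC22A5 and ZDHHC8P1 each stood among the 5 most alike of at least 2 of these 3 members. KIF17 was most like MT1F (0.970) and LINC01270 most like MT1M (0.982). These values are descriptions and rest largely on the step between the Dex samples and the rest.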

How the data were processed

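RNA-seq of 10 samples (5 groups of 2) was analysed, and 12 chromatin samples of the series were not analysed here. The authors aligned 50-base single-end reads with TopHat2 2.0.13 and quantified genes in Partek Genomics Suite 6.6, per the labels, which also name hg19. Their gene models, strand setting and treatment of reads with several matches are not given in the sources used here. The deposited files hold RPKM values made by the authors for 20668 gene symbols, 1 file per sample. Values at the smallest steps gave mapped reads per sample (51300000 to 62100000) and whole reads per gene, within 0.154 reads of a whole number for the members. Intervals on reads cover counting error only.

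log2(RPKM + 0.1) was fitted with limma 3.58.1 (R 4.3.3) in 1 model of all 10 samples, with an abundance trend, over the 12713 genes at 0.5 RPKM or more in at least 2 samples. Fold changes are on this scale, which understates low genes. Tests were two-sided with Benjamini-Hochberg adjustment over all genes kept, called at 0.05, in 8 comparisons. The labels number the replicates without naming separate cultures, so p-values measure only the spread between these samples. Deviations of same-numbered samples correlated at -0.057 to 0.198 over 10 pairs of groups, above 0.1 in 3, so the numbers were not taken to pair the samples.

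Sequences and positions come from GRCh37 with GENCODE release 44 lifted to it. The members and gene lists were chosen with earlier results of these data known. From each list, at most 4 genes with the largest called change were named, plus the 5 genes most alike to each called member. HERPUD1 at Dex 4 h, SLC30A1 between compounds, HMOX1, PDK4, SGK1, ERRFI1 and NR3C1 at Dex 4 h, and KRT19 and GATA3 were chosen after their values were seen. Alternatives changed the pseudocount, filter, normalization, trend, moderation, samples and replicate block.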

Additional observations from a re-analysis of the deposited data

Results flagged for a closer look

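For 4 members the response to Dex differed between the 2 times, by limma's test of Dex 4 h against Dex 2 h. The log2 difference was 0.79 for MT1E, 0.39 for MT1F, 0.59 for MT1X and 0.62 for MT2A, each higher at 4 h in 2 of 2 samples. The 2 sets of samples were compared with the same vehicle samples, whose time is not labelled.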

How the results depend on the processing

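Of 22 member values that passed the threshold, none turned direction under any alternative. They stayed past it in 420 of 436 recomputations, and the 16 losses were 15 for MT1M, at 2 h of Dex against vehicle or CpdA, and 1 for MT1F. A change in the filter, trend, moderation, replicate block or samples of other groups leaves the fold change as it is. Direction could therefore turn only with another pseudocount, another normalization or a compared sample left out. The stricter filter dropped MT1M, so it has no value there and is not counted as a loss. At Dex 2 h against vehicle, MT1M had a limma adjusted p of 0.0506 with no filter, 0.0723 with quantile normalization and 0.0926 with no moderation. At CpdA 2 h, where no member passed, 2 passed with quantile normalization and 1 with only the 4 samples compared, and 0 to 2 when single samples were left out. At CpdA 4 h the counts were 3 with quantile normalization, 2 with median scaling, 1 with only the 4 samples compared, and 0 to 2 with single samples left out. MT2A was among the genes that passed with quantile normalization (adjusted p = 0.000783 at 2 h and 0.000523 at 4 h) and with 4 samples (0.0383 and 0.0136). The cause was not tested.

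Values that turned sign had not passed the threshold: with median scaling, MT1E at CpdA 2 h (0.002), MTF1 between Dex and CpdA at 2 h (-0.007) and MT1X between CpdA times (0.004), and with quantile normalization MTF1 between Dex and CpdA at 2 h (-0.012) and MT1M between CpdA times (-0.177). With single samples left out, values ran from -0.015 to 0.098 for MT1F at Dex 2 h, from -0.337 to 0.088 for MTF1 at Dex 4 h, from -0.073 to 0.01 for MT1E and -0.147 to 0.043 for MTF1 at CpdA 2 h, from -0.083 to 0.107 for MTF1 between compounds at 2 h, and from -0.298 to 0.128 for MTF1 between Dex times. Between CpdA times they ran from -0.442 to 0.611 for MT1M and from -0.005 to 0.041 for MT2A. With the replicate block, the members called were 4, 5, 0 and 0 against vehicle in the order Dex 2 h, Dex 4 h, CpdA 2 h and CpdA 4 h, and the block changed no call of a member.

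Counts over all genes also moved with the setting. With quantile normalization they changed little at CpdA 2 h (from 786 to 741) and at CpdA 4 h (from 2609 to 2573), where the members called rose. With no moderation they fell from 786 to 368 at CpdA 2 h, from 1725 to 993 between Dex times and from 1577 to 827 between CpdA times. With only the 4 samples compared they were 1775 instead of 3487 at Dex 4 h, 480 at CpdA 2 h, 696 between Dex times and 3500 between CpdA times. With single samples left out they ran from 766 (without Dex 2 h replicate 1) to 1710 at Dex 2 h, 2772 to 4772 at Dex 4 h, 216 (without CpdA 2 h replicate 1) to 1446 at CpdA 2 h, 1190 (without CpdA 4 h replicate 1) to 3637 at CpdA 4 h, and 592 (without Dex 2 h replicate 1) to 3440 (without Dex 4 h replicate 2) between Dex times. Between CpdA times they ran from 261 (without CpdA 2 h replicate 1) to 2500, between compounds at 2 h from 959 (without CpdA 2 h replicate 1) to 2297, and at 4 h from 2759 (without CpdA 4 h replicate 2) to 5183. Depth limits MT1M and MT1G, whose vehicle values rest on 5 and 2 reads.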
